A study of Mus musculus with 38 samples.

Results

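The antioxidant and glutathione defence genes are 33 genes whose products remove superoxide, hydrogen peroxide and reactive electrophiles or make the reducing equivalents for this work. They were taken by symbol from the count and TPM tables of left ventricle RNA, and all 33 were found among 29564 listed genes and passed the filter on low counts with 13765 genes in all. RNA was measured in 38 mice, 1 library each, in 4 groups. The non_failing group (n = 8) received vehicle. Per the study's methods the comparison group of this model ate standard chow, and L-NAME is named there for the HFpEF mice. The HFpEF groups model heart failure with preserved ejection fraction through a high-fat diet plus L-NAME, a blocker of nitric oxide synthesis. They were given vehicle (HFpEF+Veh, n = 8), TYA-018, which inhibits the deacetylase HDAC6 (HFpEF+TYA-018, n = 11), or empagliflozin, which inhibits the glucose transporter SGLT2 (HFpEF+SGLT2i, n = 11). All mice are labelled as wild-type C57BL6, and the labels and the study's methods differ on their sex. Diet, L-NAME and disease came together in these mice, so a difference from non_failing hearts cannot be assigned to any of them, and no library came from a mouse on diet or L-NAME alone. Ages are not given in the labels. Libraries are named by the mouse number in their title.

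Most of the enzymes in question work in relays. Superoxide dismutases turn superoxide into hydrogen peroxide, which catalase, glutathione peroxidases and peroxiredoxins then reduce to water. Glutathione and thioredoxin supply the electrons for the peroxidases and are themselves recharged by reductases that use NADPH. Many of the genes are targets of the transcription factor NRF2 (Nfe2l2), which KEAP1 holds in the cytosol and marks for degradation until electrophiles or peroxide modify KEAP1. NRF2 pairs with small MAF proteins on antioxidant response elements, whose core is TGACNNNGC. The heart depends on mitochondrial respiration, a steady source of superoxide.

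Promoter sequences are shown for the genes on which the results below turn and for the members that hold an antioxidant response element. RefSeq promoters on GRCm38.p6 were at hand for 26 of the 33 members, and those of Sod3, Gclc, Gsr, Nnt, Prdx6, Gsta4 and Hmox1 were not used here. On either strand of the 250 bases before the RefSeq start, TGACNNNGC was found in 7 of 26 members (26.9%), against 11.5% of 27025 genes with a promoter. The shorter palindrome TGANTCA, searched after the Srxn1 sequence had been read, was found in 2 of the 26 members (7.69%) and 7.82% of all genes. Prdx1 holds 2 palindromes, of which 1 lies within the antioxidant response element listed for that gene. A match is a string of letters, not a measured binding site. The 3 longer stretches hold the 180 bases before the annotated start of genes called below. Capitals mark either motif.
Srxn1, chr2:152105336-152105515, plus strand: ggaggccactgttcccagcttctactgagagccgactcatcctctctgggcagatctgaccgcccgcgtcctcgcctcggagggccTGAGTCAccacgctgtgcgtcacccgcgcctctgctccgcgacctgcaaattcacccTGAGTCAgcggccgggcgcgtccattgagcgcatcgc
Sod1, chr16:90220574-90220753, plus strand: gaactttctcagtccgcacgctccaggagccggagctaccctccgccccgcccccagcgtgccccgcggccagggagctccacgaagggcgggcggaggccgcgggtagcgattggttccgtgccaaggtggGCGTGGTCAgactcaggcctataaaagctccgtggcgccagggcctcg
Cat, chr2:103485161-103485340, minus strand: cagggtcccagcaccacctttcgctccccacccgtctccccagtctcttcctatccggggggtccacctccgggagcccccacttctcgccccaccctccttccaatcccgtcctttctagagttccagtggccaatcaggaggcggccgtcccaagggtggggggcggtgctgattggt

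Srxn1 held TGANTCA at 2 positions and no antioxidant response element in its window, Sod1 held a single antioxidant response element on the other strand, and the Cat stretch held neither motif. The remaining 6 members with an antioxidant response element are shown with 6 flanking bases on each side and the element in capitals, read along the strand of the gene. The Txnrd1 element lies in 1 of 3 RefSeq promoters and the Mgst1 element in 1 of 2. By the GENCODE M21 gene positions, the elements of G6pdx, Txnrd1 and Mgst1 lie inside the gene, after its annotated start.
Nfe2l2, chr2:75704889-75704909, minus strand: cccaccTGACTCCGCcatgcc
Gclm, chr3:122245417-122245437, plus strand: ccgggcGCACCGTCAactctc
G6pdx, chrX:74428923-74428943, minus strand: gggtcaGCTCAGTCAaagcac
Txnrd1, chr10:82859108-82859128, plus strand: atttttGCTTTGTCAttctga
Prdx1, chr4:116685460-116685480, plus strand: gaaagcGCTGAGTCAtccccc
Mgst1, chr6:138140465-138140485, plus strand: ggcttgGCACGGTCAggaggc

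With edgeR and TMM scaling on all libraries, none of these 6 genes was called in the 6 comparisons described below, and Txnrd1 was called for empagliflozin against vehicle when 1 surrogate variable was fitted (0.30, adjusted p = 0.0422).

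Library totals ran from 21.5 to 59.3 M expected counts (1 M is 1000000 counts), with a median of 29.5 M. Hmox1, the member with the lowest count in any library, had at least 97 counts in each. Cardiomyocyte markers were abundant in every library, with the sum of 8 markers at 15339 to 29356 TPM. The brown fat gene Ucp1 stayed at or below 0.116 TPM, and the fat marker Adipoq at or below 0.307 TPM. The target of TYA-018, Hdac6, lay between 2.73 and 5.59 TPM. Slc5a2, the SGLT2 gene, had reads in 11 of 38 libraries, at most 4.24 counts in any of them.

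TPM, transcripts per 1000000 transcripts, corrects for length and library total, so members can be ranked on it. The level of the 33 genes over the 38 libraries spanned from a median of 1.97 TPM for G6pdx, the NADPH-producing entry enzyme of the pentose phosphate pathway, to 712 TPM for Gpx4, the peroxidase that reduces lipid hydroperoxides in membranes. Sod1, the cytosolic copper-zinc dismutase, had the second highest median (558 TPM). It was followed by Txnip, an inhibitor of thioredoxin (322 TPM), and by the peroxiredoxins Prdx5 (241 TPM) and Prdx2 (237 TPM). The enzymes of glutathione synthesis and recycling were scarce by comparison. The median was 5.21 TPM for Gclc and 8.63 TPM for Gclm, the subunits of the rate-limiting ligase. It was 5.48 TPM for glutathione synthetase Gss and 5.40 TPM for glutathione reductase Gsr. In the plot of levels by library the groups overlap for most genes. Counts with a fraction (more than 0.01 from a whole number) show reads shared between sequences. They occurred in at least 33 of 38 libraries for Sod1, Sod2, Gpx4, Nnt, Txnrd1, Txnrd2, Txnip, Prdx5, Gstm1 and Mgst1, whose values depend on how the quantifier split those reads, and in 0 libraries for Srxn1, Sod3, Cat and Gpx3.

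**Figure D1:**
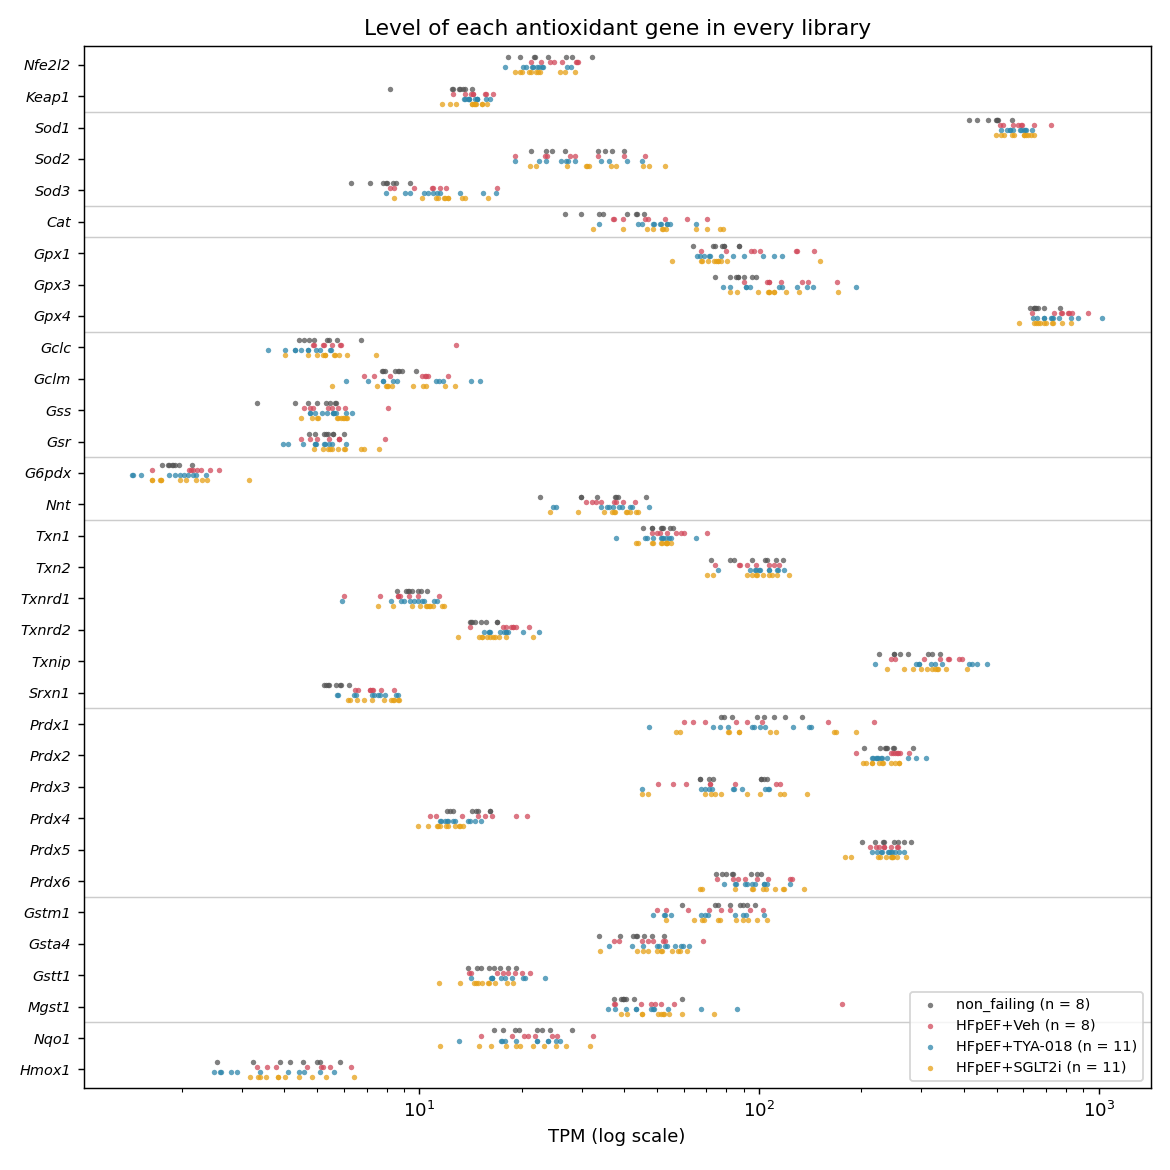
TPM (log axis) of each of the 33 members in each of 38 libraries, 1 point per library, coloured by group and ordered by role. Median levels range from 1.97 TPM (G6pdx) to 712 TPM (Gpx4), and the single points far to the right for Gclc (12.8 TPM) and Mgst1 (176 TPM) are the vehicle library V2523.

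The question of the disease comparison is how the HFpEF hearts differed from non_failing hearts. With TMM scaling and the quasi-likelihood test of edgeR, 0 of 33 members passed an adjusted p of 0.05 between HFpEF+Veh and non_failing, where 3.15% of all 13765 genes did. At an unadjusted p under 0.05 there were 7 members (6 higher and 1 lower), 21.2% of the members against 15.9% of all genes. In the treated HFpEF groups, members were called, and each was higher than in non_failing hearts. Between HFpEF+TYA-018 and non_failing, 6 members were higher (18.2%) and 0 lower, against 4.00% of all genes called higher and 3.39% called lower. They were Srxn1, Sod3, Cat, Sod1, Keap1 and Gpx3. Between HFpEF+SGLT2i and non_failing, 3 members were higher (9.09%) and 0 lower, against 3.46% and 2.99% of all genes. These were Srxn1, Sod3 and Cat. Both treated groups were set against the same 8 non_failing libraries, so these results are not independent of each other.

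Srxn1, the sulfiredoxin that restores overoxidised peroxiredoxins, lies on GRCm38 at chr2:152105516-152111376 (plus strand) and overlaps no other annotated gene. Its lowest, median and highest TPM were 5.23, 5.56 and 6.19 in non_failing hearts. They were 6.46, 7.20 and 8.40 in HFpEF+Veh, 5.71, 7.36 and 8.67 in HFpEF+TYA-018, and 6.15, 7.89 and 8.70 in HFpEF+SGLT2i. All 8 vehicle libraries stood above every non_failing library on TPM, as did 9 of 11 libraries with TYA-018 and 10 of 11 with empagliflozin. The share of all genes that separate in this way on TPM was not counted, for Srxn1 or for the genes below. The log2 ratio of mean TPM of vehicle to non_failing hearts was 0.37 for Srxn1, above the TMM-scaled 0.27. The log2 fold change against non_failing hearts was 0.42 (SE 0.08, adjusted p = 0.000795) with TYA-018 and 0.43 (SE 0.08, adjusted p = 0.000653) with empagliflozin. With vehicle it was 0.27 (SE 0.09) and missed the threshold (adjusted p = 0.0839). The vehicle difference was called on the log2(TPM + 1) scale with limma (0.33, SE 0.08, adjusted p = 0.0160), with library size as the sole scaling (0.34, adjusted p = 0.0181) and without non_failing V2507 (adjusted p = 0.0325).

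Sod3, the secreted dismutase that binds to the extracellular matrix, lies at chr5:52363791-52371418 (plus strand). Its lowest, median and highest TPM were 6.27, 8.00 and 9.41 in non_failing hearts and 8.20, 10.9 and 16.9 in HFpEF+Veh. They were 8.00, 11.0 and 16.8 in HFpEF+TYA-018, and 8.43, 11.9 and 16.0 in HFpEF+SGLT2i. The groups overlapped at their edges, with 6 of 8, 8 of 11 and 10 of 11 HFpEF libraries above the highest non_failing library. For vehicle against non_failing hearts the log2 ratio of mean TPM was 0.48, above the TMM-scaled 0.39. The log2 fold change was 0.55 (SE 0.11, adjusted p = 0.00146) with TYA-018 and 0.59 (SE 0.11, adjusted p = 0.000678) with empagliflozin. With vehicle it was 0.39 (SE 0.12, adjusted p = 0.0691), and without V2521, the vehicle library with the highest Sod3, it was 0.29 (adjusted p = 0.185). DESeq2 called the vehicle difference (adjusted p = 0.0441), and edgeR called it in 2 of the 38 fits without 1 library (lowest adjusted p = 0.0437, without V2530).

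Cat, the peroxisomal catalase, lies at chr2:103453849-103485160 (minus strand). Its lowest, median and highest TPM were 26.8, 37.7 and 45.9 in non_failing hearts and 37.2, 46.6 and 70.0 in HFpEF+Veh. They were 33.8, 51.0 and 65.3 in HFpEF+TYA-018, and 32.5, 52.1 and 78.4 in HFpEF+SGLT2i. The spread within each group was wide, and the groups overlapped. The log2 fold change was 0.56 (SE 0.14, adjusted p = 0.0115) with empagliflozin, a call that was kept in all 38 fits that left out a single library. With TYA-018 it was 0.46 (SE 0.14, adjusted p = 0.0405), and that call held in 24 of the 38 fits. It was lost without non_failing V2502, V2503, V2507, V2508, V2509 or V2510, without V2546, V2547, V2548, V2549, V2555, V2559 or V2570 of its own group, and without V2561 of the empagliflozin group. Among these fits the adjusted p reached 0.0911 (without V2507), and it was 0.0711 without V2555. With no filter on low counts it was 0.0602, and with library size alone 0.0939. With vehicle the fold change was 0.28 (SE 0.15, adjusted p = 0.378). The 38 fits without 1 library gave 0.19 to 0.33, with the highest adjusted p (0.513) without V2523, the vehicle library with the highest Cat.

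Sod1 lies at chr16:90220754-90226329 (plus strand) and overlaps Scaf4 on the other strand. Its lowest, median and highest TPM were 415, 499 and 555 in non_failing hearts and 511, 584 and 722 in HFpEF+Veh. They were 515, 588 and 636 in HFpEF+TYA-018, and 499, 602 and 645 in HFpEF+SGLT2i. The 3 HFpEF groups shared the same range apart from the highest vehicle library, V2527. The change against non_failing hearts on the log2 scale was 0.33 (SE 0.08, adjusted p = 0.00846) with TYA-018, 0.24 (SE 0.08, adjusted p = 0.0700) with empagliflozin and 0.23 (SE 0.09, adjusted p = 0.168) with vehicle. On log2(TPM + 1) with limma, the differences with empagliflozin (adjusted p = 0.00532) and with vehicle (adjusted p = 0.0137) were called as well.

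Keap1, the adaptor that directs NRF2 to degradation, lies at chr9:21229730-21239361 (minus strand) and overlaps the predicted gene Gm16754 on the other strand. Lowest, median and highest Keap1 levels were 8.19, 13.1 and 14.2 TPM in non_failing hearts and 12.5, 14.3 and 16.5 in HFpEF+Veh. They were 13.6, 14.6 and 16.1 in HFpEF+TYA-018, and 11.6, 14.5 and 15.8 in HFpEF+SGLT2i. The non_failing minimum was the library V2507, and the other 7 lay between 12.5 and 14.2 TPM. In log2 fold change the difference was 0.21 (SE 0.05, adjusted p = 0.0115) with TYA-018, 0.17 (SE 0.05, adjusted p = 0.0535) with empagliflozin and 0.11 (SE 0.06, adjusted p = 0.370) with vehicle. Leaving out V2507 gave an adjusted p of 0.655 with vehicle and 0.212 with empagliflozin. The TYA-018 value was then 0.16 and stayed just inside the threshold (adjusted p = 0.0490). Library size as the sole scaling ended the TYA-018 call (0.15, adjusted p = 0.235), as did limma on log2(TPM + 0.1) (adjusted p = 0.0505).

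Gpx3, the secreted glutathione peroxidase, lies at chr11:54902453-54910377 (plus strand). Gpx3 had a lowest, median and highest TPM of 74.3, 86.5 and 97.8 in non_failing hearts and 90.5, 112 and 169 in HFpEF+Veh. The values were 78.0, 115 and 193 in HFpEF+TYA-018, and 81.9, 107 and 171 in HFpEF+SGLT2i. In the vehicle group 7 of 8 libraries stood above the highest non_failing library, against 6 of 11 with TYA-018 and 9 of 11 with empagliflozin. For vehicle against non_failing hearts the log2 ratio of mean TPM was 0.47, above the TMM-scaled 0.32. On the log2 scale the difference was 0.40 (SE 0.13, adjusted p = 0.0443) with TYA-018, 0.32 (SE 0.13, adjusted p = 0.134) with empagliflozin and 0.32 (SE 0.14, adjusted p = 0.217) with vehicle. The TYA-018 call rested in part on V2555, the library with the highest value, without which the change was 0.30 (adjusted p = 0.113), and it held in 22 of the 38 fits. It was also lost without V2502, V2503, V2504, V2508, V2509, V2510, V2526, V2528, V2543, V2551, V2552, V2559, V2561, V2565 or V2570, with adjusted p up to 0.0895. It was not called on log2(TPM + 1) with limma (adjusted p = 0.181), with no filter on low counts (0.0595), with library size alone (0.0923) or with the 2 groups fitted alone (0.0698). Between the HFpEF groups edgeR called none of the 6 genes, so a pass with TYA-018 and not with vehicle is not shown to be a difference between these groups.

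**Figure D2:**
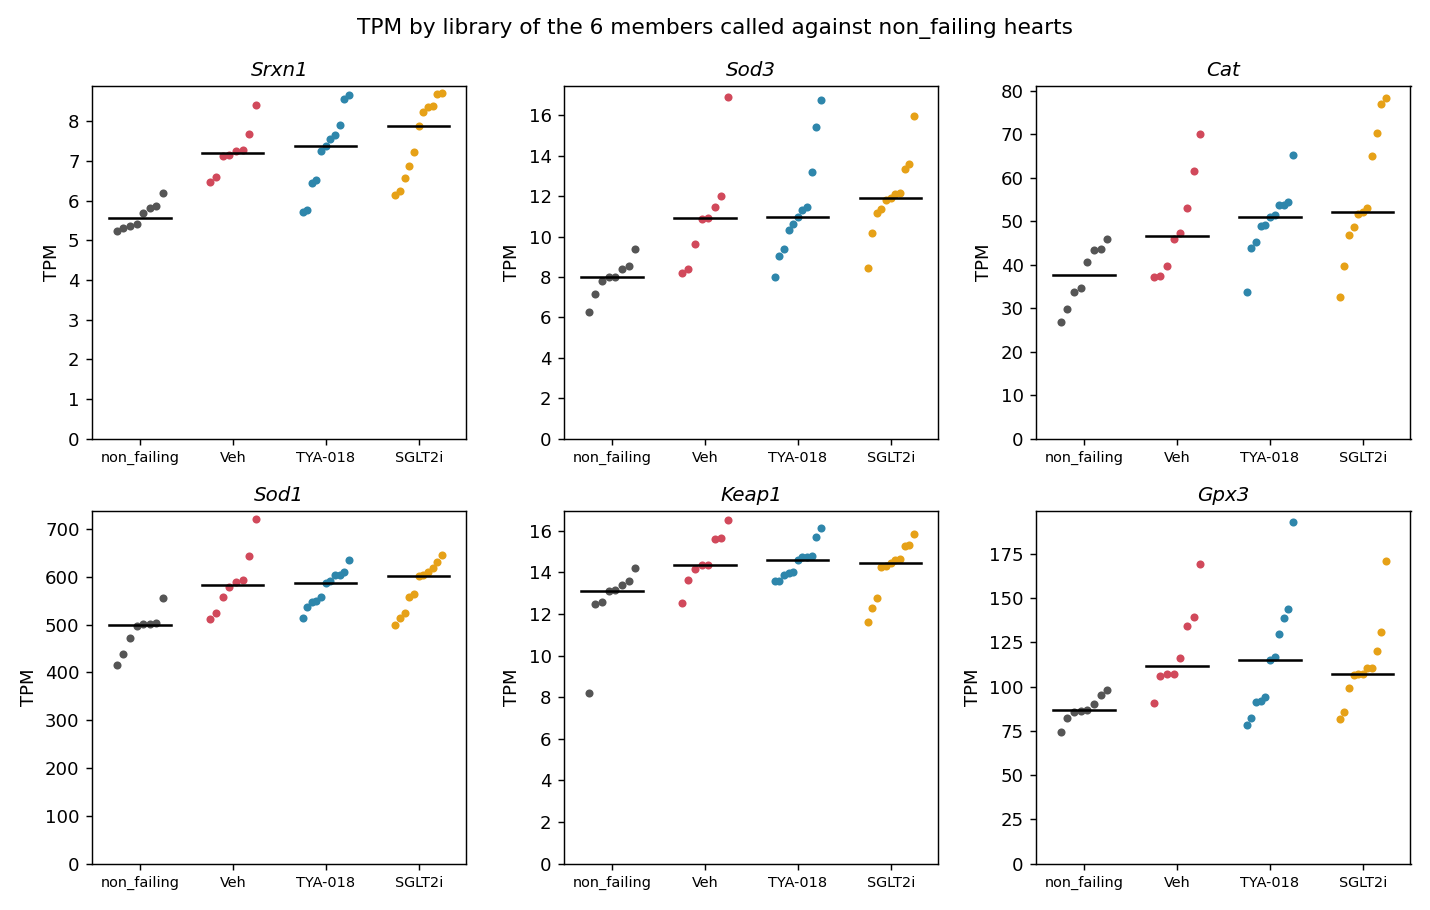
TPM by library for the 6 members called against non_failing hearts, 1 point per library in rising order within a group and a black line at the group median. The y axes start at 0. For each gene the medians of the 3 HFpEF groups lie above the non_failing median, while the ranges overlap. Only the Srxn1 vehicle libraries (6.46 to 8.40 TPM) were clear of the non_failing ones (5.23 to 6.19 TPM) on TPM. With vehicle 0 members were called by edgeR.

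The call for Srxn1 and Sod3 in both treated groups was kept in each of the 38 fits without 1 library, as were those for Sod1 and Keap1 with TYA-018. Without V2555 the TYA-018 group kept 4 calls, Srxn1, Sod3, Sod1 and Keap1. The empagliflozin group kept Srxn1, Sod3 and Cat without V2523, without V2555 and without V2507.

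Markers of some cell types also differed between these groups. The sum of 8 fibroblast markers, of which 2 were called higher and 0 lower in HFpEF+Veh against non_failing, was 377 to 605 TPM in non_failing hearts and 427 to 981 TPM in HFpEF+Veh. It was 379 to 715 TPM with TYA-018 and 431 to 718 TPM with empagliflozin. The sum of 8 endothelial markers, of which 0 were called between HFpEF+Veh and non_failing, was 1387 to 2329 TPM in non_failing hearts. It was 1865 to 3383 TPM in HFpEF+Veh, 1957 to 3267 TPM with TYA-018 and 1551 to 3955 TPM with empagliflozin. In the non_failing and TYA-018 groups most of this sum was Fabp4, a fatty acid binding protein, the 1 endothelial marker called higher with TYA-018 than in non_failing hearts (0.57, SE 0.16, adjusted p = 0.0266). Its means were 2245 and 1554 TPM. Of the 8 endothelial markers, 6 were below 0 in that comparison, with a median of -0.07. Of 8 cardiomyocyte markers, 3 were called lower in HFpEF+Veh than in non_failing hearts. Against non_failing hearts, 1 fibroblast marker was higher with each drug and 1 lower with empagliflozin, and 3 cardiomyocyte markers were lower with empagliflozin and 0 with TYA-018. Red cells, which are rich in Cat, Sod1, Gpx1 and Prdx2, varied between libraries. The sum of 8 erythrocyte markers was 3797 to 8163 TPM in non_failing hearts, 5794 to 41950 TPM with vehicle, 4822 to 22977 TPM with TYA-018 and 4731 to 16080 TPM with empagliflozin, and 3 of the 8 were called higher with TYA-018 than in non_failing hearts and 0 with vehicle. Without V2523 these counts were 4 and 4. The sum of 8 macrophage markers was 75.2 to 142 TPM in non_failing hearts, 115 to 192 TPM with vehicle, 78.5 to 215 TPM with TYA-018 (highest in V2555) and 105 to 182 TPM with empagliflozin, with 0 of 8 called. Of 8 pericyte and smooth muscle markers, Rgs5 (-0.36, adjusted p = 0.0313) and Abcc9 (-0.46, adjusted p = 0.0251) were called lower with vehicle, and with TYA-018 Rgs5 was lower (-0.33, adjusted p = 0.0171) and Acta2 higher (0.67, adjusted p = 0.0438). Acta1, from the skeletal muscle list, was higher in all 3 HFpEF groups (1.48 with vehicle, 1.52 with TYA-018 and 1.44 with empagliflozin). Of the same list, Tnnt3 was higher with vehicle (2.51, adjusted p = 0.0275, mean 2.57 TPM with SD 5.80) and lower than with vehicle under TYA-018 (-2.98) and empagliflozin (-2.61), and Tnni2 was lower under empagliflozin than with vehicle (-1.53). Although Ucp1 and Adipoq were near 0, other genes of the fat lists moved. Cidea was higher in the same order by 0.69, 0.96 and 0.90, Plin4 was higher with TYA-018 (0.55) and empagliflozin (0.54), and Car3 was lower with TYA-018 (-3.50) and empagliflozin (-3.29). Hepatocyte markers, described with V2523, were lower with both drugs. The part of these cell types in the differences of Sod3, Gpx3 and the other called genes was not tested. In bulk tissue, a change in the number of cells of a type and a change in RNA per cell cannot be told apart. None of the cardiomyocyte, fibroblast, endothelial, erythrocyte and macrophage markers was at 0 in all libraries of a group.

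The remaining 27 members were not called against non_failing hearts with edgeR on all libraries. Over the 33 genes the median log2 fold change was 0.06 in HFpEF+Veh, with 22 of 33 above 0, beside a median of 0.01 over all genes. It was 0.14 with TYA-018 (26 of 33 above 0) and 0.09 with empagliflozin (24 of 33), beside 0.01 over all genes in both. The vehicle median leaned on V2523, without which it was -0.00029 with 16 of 33 members above 0. Without V2555 the TYA-018 median was 0.11 with 23 of 33 above 0.

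The NRF2 gene itself did not pass the test. Nfe2l2 ranged from 17.8 to 32.2 TPM, with group medians of 22.9 TPM in non_failing hearts, 25.6 TPM with vehicle, 22.2 TPM with TYA-018 and 22.1 TPM with empagliflozin. The vehicle median was higher on TPM, but the TMM-scaled log2 fold change against non_failing hearts was -0.04 (SE 0.10, edgeR adjusted p = 0.880). The log2 ratio of mean TPM was 0.10. Between TYA-018 and vehicle the fold change was -0.08 (SE 0.09, adjusted p = 0.686). Among the members that NRF2 is known to induce, Srxn1 was called with both drugs (above), while edgeR on all libraries did not call Nqo1, Hmox1, Gclm or Txnrd1 in any comparison. Nqo1, a quinone reductase, ranged from 11.5 to 32.5 TPM with group medians of 19.7 to 22.1 TPM. Hmox1, which degrades haem, ranged from 2.48 to 6.40 TPM. Gclm ranged from 5.51 to 15.0 TPM, and its group medians were 8.58 TPM in non_failing hearts and 10.3 TPM, 8.59 TPM and 8.31 TPM in the vehicle, TYA-018 and empagliflozin groups. Txnrd1, the cytosolic thioredoxin reductase, was 0.20 lower on the log2 scale in HFpEF+Veh at an unadjusted p of 0.0458 (SE 0.10, adjusted p = 0.304).

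Among the glutathione peroxidases, Gpx1, the abundant cytosolic form, had medians of 78.2 TPM in non_failing hearts and 98.6, 77.0 and 74.8 TPM in the vehicle, TYA-018 and empagliflozin groups. The vehicle difference was 0.35 (SE 0.16, adjusted p = 0.270). The highest vehicle value, 145 TPM, was in V2529, the library with the largest erythrocyte sum, and without it the difference was 0.27 (adjusted p = 0.459). Gpx1 was 129 TPM in V2530 and in V2523. In V2529, Cat (47.2 TPM), Sod1 (558 TPM) and Prdx2 (257 TPM) lay near the vehicle medians of 46.6, 584 and 253 TPM. The part of red cells in these values was not tested. Gpx4 medians were 652, 795, 728 and 690 TPM in the non_failing, vehicle, TYA-018 and empagliflozin groups. The Gpx4 difference between TYA-018 and non_failing hearts was 0.24 (SE 0.09, adjusted p = 0.0861). That value was 0.17 without V2555, and without V2543 of its group it was 0.28 and called (adjusted p = 0.0427). The mitochondrial dismutase Sod2 overlapped widely between groups, from 19.1 to 52.8 TPM, and all its comparisons had adjusted p of at least 0.543.

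With edgeR on all libraries the glutathione synthesis and recycling genes gave 0 calls in all 6 comparisons. Gss was 0.20 higher with TYA-018 (SE 0.08, adjusted p = 0.119) and 0.17 higher with empagliflozin (SE 0.08, adjusted p = 0.225) than in non_failing hearts. Gsr stayed between 3.97 and 7.94 TPM. The NADPH suppliers were not called either. Group medians of G6pdx ran from 1.87 to 2.18 TPM. Those of Nnt, the mitochondrial transhydrogenase, ran from 35.5 to 37.8 TPM. The study's methods name C57BL/6J mice, a substrain known for a deletion within Nnt, and the table gives gene totals that do not show which exons were read.

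In the thioredoxin system, Txn1 (38.03 to 70.3 TPM), Txn2 (70.1 to 123 TPM), Txnrd2 (13.0 to 22.5 TPM) and Txnip (220 to 469 TPM) were not called by edgeR on all libraries. With 1 surrogate variable Txn2 was called between TYA-018 and vehicle (0.31, adjusted p = 0.0251). Against non_failing hearts, Txnrd2 was 0.20 higher (SE 0.09, adjusted p = 0.195) and Txnip 0.19 higher (SE 0.09, adjusted p = 0.169) with TYA-018. Of the 6 peroxiredoxins, which reduce peroxide with thioredoxin or, for Prdx6, with glutathione, 3 were above and 3 below 0 in HFpEF+Veh, and edgeR on all libraries called 0 in any comparison. Prdx1 ranged from 47.3 to 217 TPM and the mitochondrial Prdx3 from 45.1 to 138 TPM, with overlap between all groups. Prdx6 was 0.23 higher with TYA-018 (SE 0.10, adjusted p = 0.151, and 0.0201 with 1 surrogate variable) and 0.20 higher with empagliflozin (SE 0.10, adjusted p = 0.245). Prdx4, the peroxiredoxin of the endoplasmic reticulum, was 0.22 lower with empagliflozin (SE 0.09, adjusted p = 0.176). The transferases Gstm1 (48.7 to 106 TPM), Gsta4 (33.8 to 68.3 TPM), Gstt1 (11.4 to 23.5 TPM) and the microsomal Mgst1 (36.0 to 176 TPM) conjugate glutathione to electrophiles. Gsta4, which acts on lipid aldehydes such as 4-hydroxynonenal, was 0.31 higher with TYA-018 (SE 0.10) and missed the threshold narrowly (adjusted p = 0.0518). It was called in 9 of the 38 fits without 1 library and by DESeq2 (adjusted p = 0.0347).

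**Figure D3:**
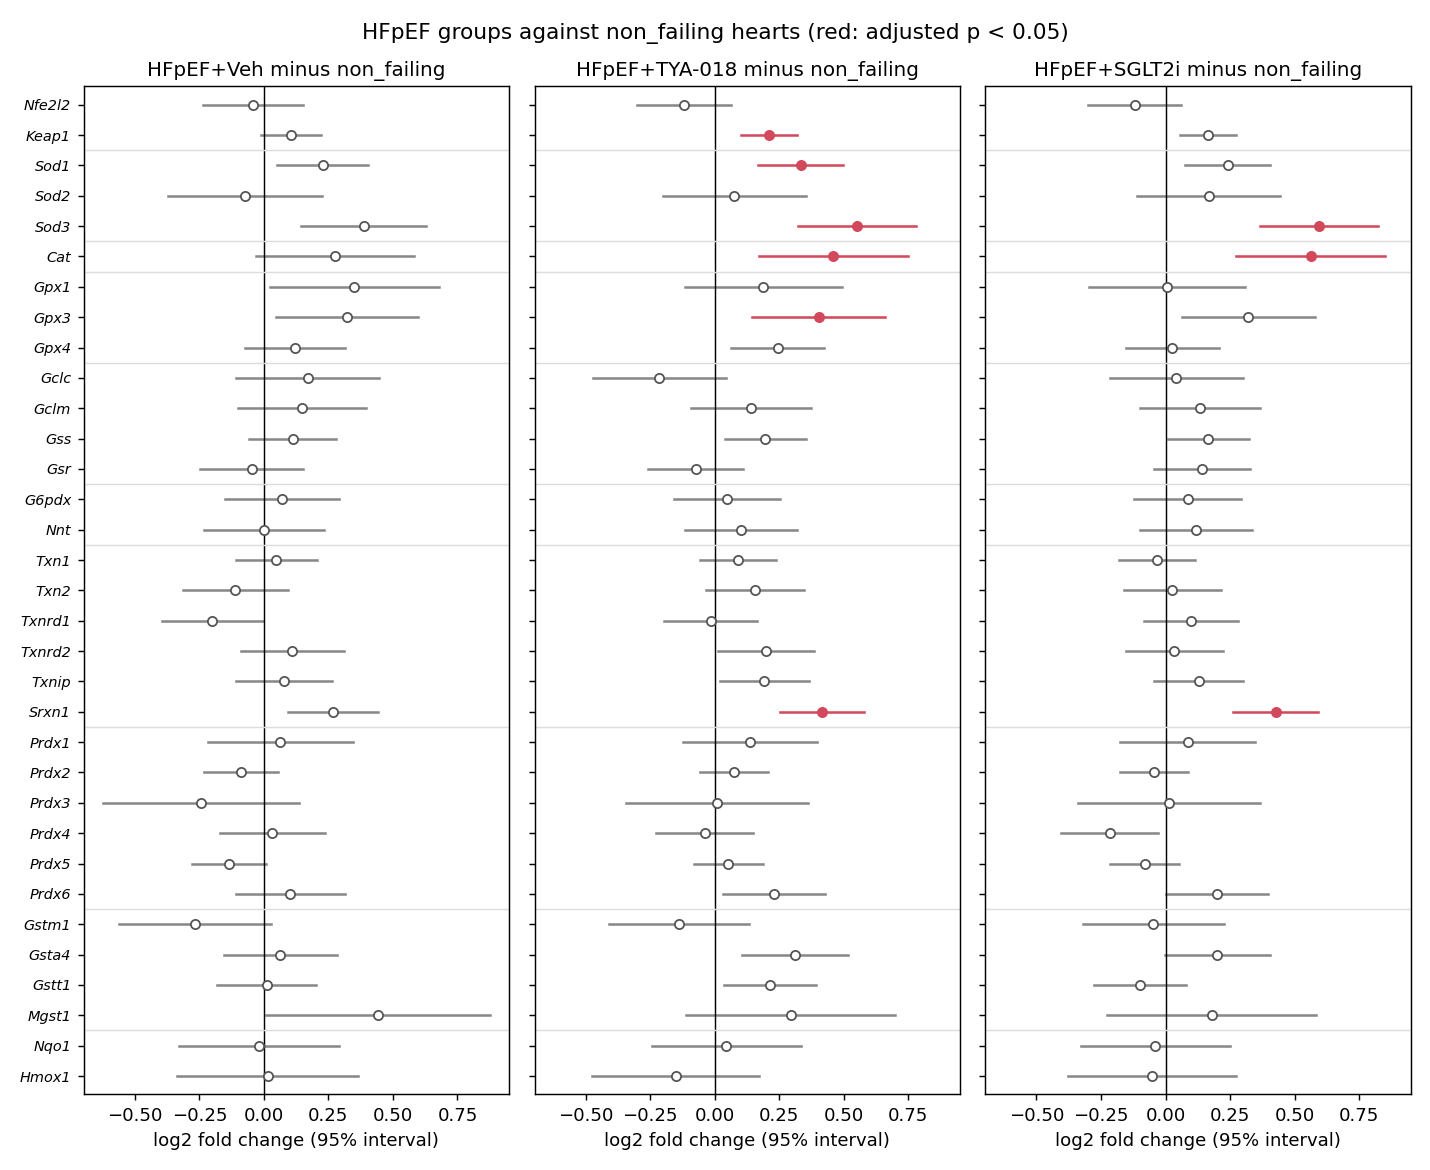
Log2 fold change (point) and 95% interval (line) of each member against non_failing hearts, for vehicle, TYA-018 and empagliflozin from left to right. Red marks an adjusted p under 0.05: 0 members with vehicle, 6 with TYA-018 and 3 with empagliflozin, all to the right of 0.

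The treatment comparisons ask what TYA-018 or empagliflozin changed within HFpEF hearts. Between HFpEF+TYA-018 and HFpEF+Veh, edgeR called 0 of 33 members, against 1.93% of all genes, and 7 members had an unadjusted p under 0.05 (6 higher and 1 lower, 21.2%) against 17.5% of all genes. DESeq2 called 0 there as well. Between HFpEF+SGLT2i and HFpEF+Veh, edgeR and DESeq2 both called 0 members, against 0.850% of all genes with edgeR (0.0145%, or 2 genes, without V2523), and 4 members had an unadjusted p under 0.05 (2 higher and 2 lower, 12.1%) against 10.0% of all genes. Among the 6 genes called against non_failing hearts, adjusted p ran from 0.310 to 0.782 for TYA-018 against vehicle and from 0.497 to 0.996 for empagliflozin against vehicle. Both drug comparisons used the same 8 vehicle libraries.

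With TYA-018, the 6 members higher at an unadjusted p under 0.05 belonged to the thioredoxin, peroxiredoxin and transferase families. The number of members under that p, in either direction, was 7 with TMM and with DESeq2, where 17.5% and 17.7% of all genes were under it. It was 2 with library size alone (26.3% of all genes), 2 with limma on log2(TPM + 1) (19.6%) and 14 with 1 surrogate variable (25.2%). Txn2, the mitochondrial thioredoxin, was 0.27 higher (SE 0.09, adjusted p = 0.118). Txnrd1 was 0.18 higher (SE 0.09, adjusted p = 0.281). Prdx5 was 0.19 higher (SE 0.07, adjusted p = 0.116) and Prdx2 0.16 higher (SE 0.07, adjusted p = 0.175). Gstt1 was 0.20 higher (SE 0.09, adjusted p = 0.211) and Gsta4 0.25 higher (SE 0.10, adjusted p = 0.182). For Gsta4 the 38 fits without 1 library gave 0.20 to 0.33, with the lowest adjusted p (0.0731) without vehicle V2523. The group ranges overlapped for each of these genes on TPM, where the medians of vehicle and TYA-018 were 253 and 229 TPM for Prdx2, 233 and 242 TPM for Prdx5 and 17.9 and 17.4 TPM for Gstt1. Prdx2 and Gstt1 thus had a lower TPM median with TYA-018 although the TMM-scaled change was above 0, and on log2(TPM + 1) with limma the Prdx2 change was -0.02. In the same comparison edgeR called 0 markers of cardiomyocytes, fibroblasts or endothelial cells. Of 8 markers each, 6 cardiomyocyte markers were above 0 (median 0.18), 8 fibroblast markers below 0 (median -0.21) and 7 endothelial markers below 0 (median -0.13), and their part in the member values was not tested. With library size as the sole scaling, the median of all genes between TYA-018 and vehicle was -0.14 and that of the members -0.03, with 11 of 33 members above 0. With TMM the values were -0.01 and 0.10, with 24 of 33 above 0. The member median was above that of all genes by either scaling. The share of all calls that were higher with TYA-018 than with vehicle was 43.2% with TMM, 2.28% with library size alone, 7.89% with limma on log2(TPM + 1), 62.2% with TMM without V2523 and 63.9% without V2523 and V2555.

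Gclc, the catalytic subunit of the ligase that starts glutathione synthesis, was the only member below 0 with TYA-018 at an unadjusted p under 0.05. Its lowest, median and highest TPM were 4.43, 5.12 and 6.73 in non_failing hearts, 4.87, 5.37 and 12.8 in HFpEF+Veh, 3.58, 4.69 and 5.50 in HFpEF+TYA-018 and 4.03, 5.28 and 7.43 in HFpEF+SGLT2i. In 7 of 11 libraries with TYA-018 it was below the lowest vehicle library. The log2 fold change against vehicle was -0.38 (SE 0.13, adjusted p = 0.0975), and without vehicle V2523 it was -0.18 (adjusted p = 0.293). It was called with library size as the sole scaling (-0.52, adjusted p = 0.0145) and without vehicle V2521 (adjusted p = 0.0459).

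With empagliflozin, Txnrd1 was 0.30 higher than with vehicle (SE 0.09, adjusted p = 0.128), with group medians of 10.6 and 8.70 TPM. Gsr was 0.19 higher (SE 0.09, adjusted p = 0.485). For Gsr the 38 fits without 1 library gave 0.15 to 0.27, with the lowest adjusted p (0.200) without vehicle V2523. Gpx1 was -0.34 (SE 0.15, adjusted p = 0.398) and Prdx4 -0.25 (SE 0.09, adjusted p = 0.272) on the same scale. Without vehicle V2530, which held the highest Prdx4 of the group, the Prdx4 value was -0.17, and without V2532 it was -0.32 and called (adjusted p = 0.0479).

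Between the drugs, edgeR called 0 of 33 members and 0% of all genes, while DESeq2 called 134 genes, and 6 members had an unadjusted p under 0.05 (4 higher and 2 lower with TYA-018, 18.2%) against 13.2% of all genes. DESeq2 called 1 of the members, Gstt1, a theta-class transferase. Its medians were 17.4 TPM with TYA-018 and 15.3 TPM with empagliflozin, the difference was 0.31 (SE 0.08) and the adjusted p was 0.0984 with edgeR and 0.0313 with DESeq2. Gpx4 was 0.22 higher with TYA-018 than with empagliflozin (SE 0.08, adjusted p = 0.229), Prdx4 0.18 higher (SE 0.09, adjusted p = 0.366) and Prdx5 0.13 higher (SE 0.06, adjusted p = 0.326). Gclc was lower by 0.26 (log2 value -0.26, SE 0.12, adjusted p = 0.333) and Gsr by 0.22 (-0.22, SE 0.08, adjusted p = 0.257). The Gpx4 difference was 0.16 without V2555. A p that misses the threshold does not show that the drugs act alike on these genes, and the intervals in the plot of comparisons among HFpEF groups give the sizes that remain possible.

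**Figure D4:**
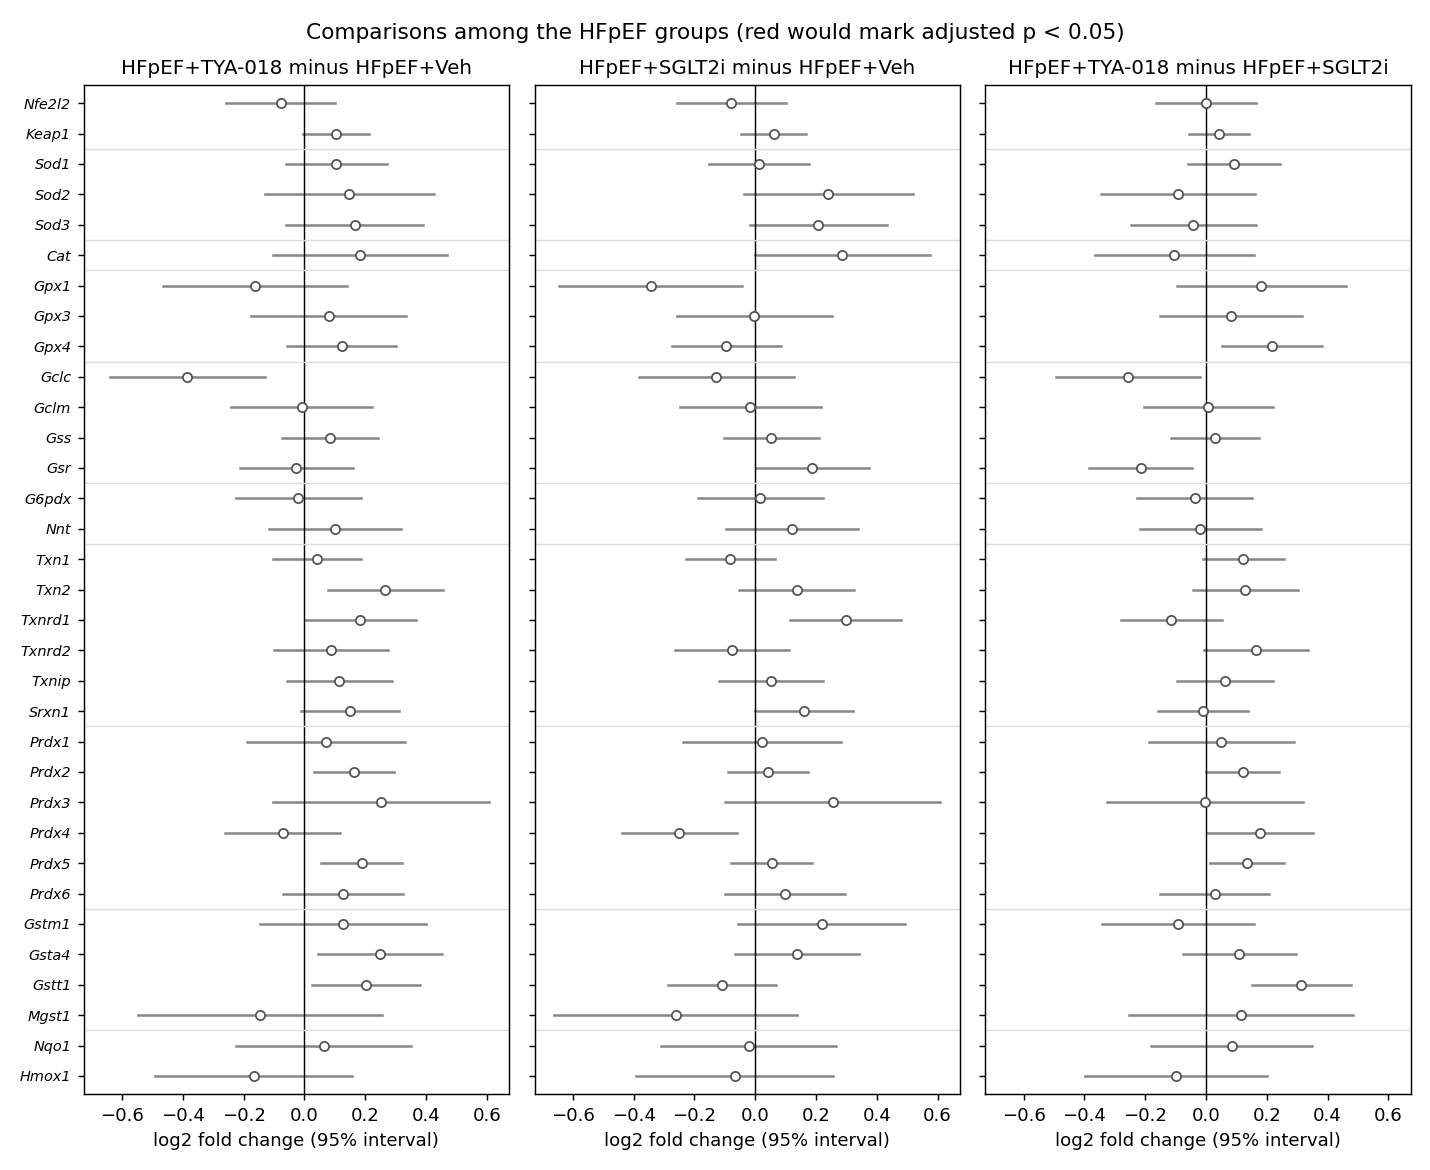
Log2 fold change (point) and 95% interval (line) of each member for TYA-018 against vehicle, empagliflozin against vehicle and TYA-018 against empagliflozin. No member had an adjusted p under 0.05, and the values farthest from 0 were Gclc (-0.38) in the left panel and Gpx1 (-0.34) in the middle panel, where Txnrd1 (0.30) was the highest.

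The vehicle library V2523 stood apart in these genes. It was above all other vehicle libraries in 14 of 33 members and below all others in 0. Mgst1 read 176 TPM in V2523 and 37.3 to 56.0 TPM in the other 7, Gclc 12.8 against 4.87 to 5.86 TPM, and Prdx1 217 against 60.2 to 159 TPM. Cat, Gsr, Gss and Gsta4 were also highest there. V2523 held the largest sum of 10 hepatocyte markers, 1432 TPM against a group median of 5.46 TPM and a group minimum of 2.69 TPM, including 493 TPM of Alb. The hepatocyte sum was 24.2 to 354 TPM in non_failing hearts, highest in V2504, which also had the highest non_failing Mgst1 (59.1 TPM). It stayed at or below 3.90 TPM with TYA-018 and 9.36 TPM with empagliflozin, and all 10 hepatocyte markers were called lower with either drug than with vehicle. Without V2523, 3 of the 10 were called lower with TYA-018 than with vehicle and 0 with empagliflozin. Against non_failing hearts, 10 were called lower with TYA-018, 9 with empagliflozin and 0 with vehicle, and without V2523 the vehicle count was 8. The Mgst1 difference between vehicle and non_failing hearts was 0.44 (SE 0.21, adjusted p = 0.307) with V2523 and -0.00029 without it. The part of the liver transcripts in the high values of V2523, Mgst1 included, was not tested.

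The library V2570 is labelled TYA-018 in its title, while its number falls among those of the empagliflozin mice (V2561 to V2575), and the title was followed. Without V2570, 4 members were called with TYA-018 against non_failing hearts, Srxn1, Sod3, Sod1 and Keap1. The TYA-018 library V2555 was above all others of its group in 11 members, among them Gpx3 (193 TPM), Gpx4 (1022 TPM), Prdx2 (311 TPM) and Txnip (469 TPM), and below all in 1, Nnt (24.8 TPM). The non_failing library V2507 was the lowest of its group in 20 of 33 members and the highest in 1. V2550 was lowest of the TYA-018 group in 16 and V2572 lowest of the empagliflozin group in 12.

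**Figure D5:**
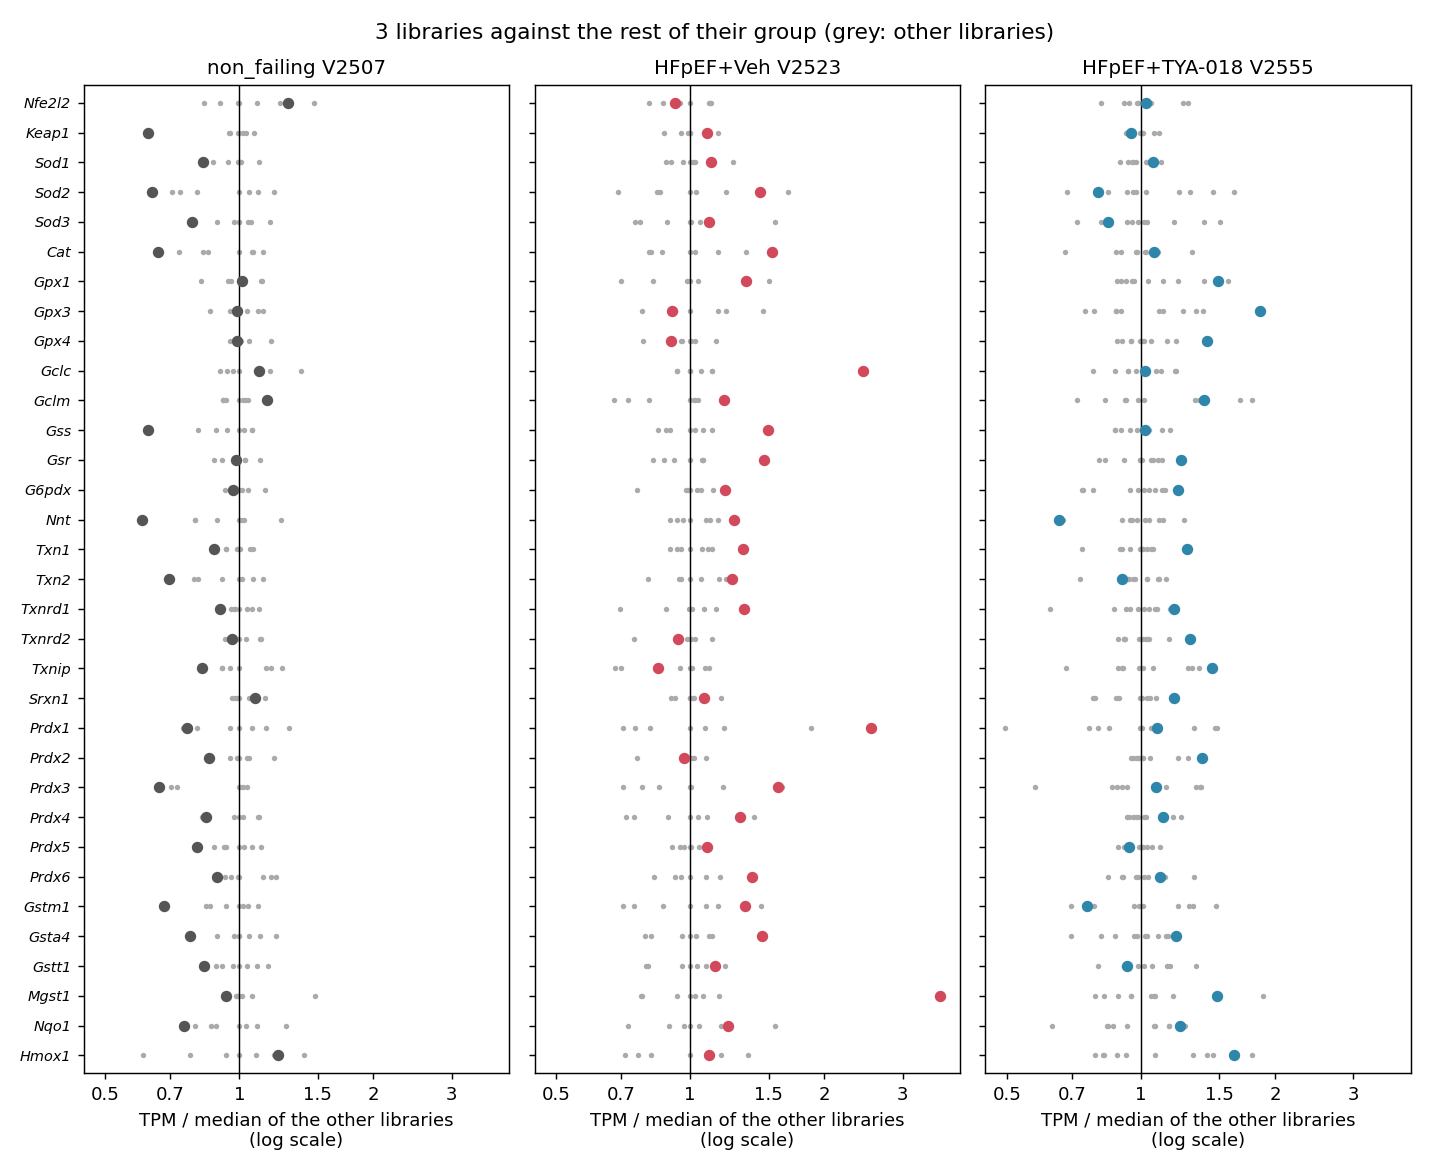
TPM of 3 libraries divided by the median of the other libraries of their group (log axis), for each member, with the other libraries in grey. V2507 lies at the low edge for many members, V2523 is far to the right for Mgst1, Prdx1 and Gclc, and V2555 is highest for Gpx3.

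Other genes of redox control were taken from 5 lists of 108 genes, of which 107 were in the tables and 102 were tested. In HFpEF+Veh against non_failing, edgeR called 4 higher (3.92%) and 3 lower (2.94%), against 1.77% and 1.38% of all genes. Against the same controls 13 were higher (12.7%) and 2 lower (1.96%) with TYA-018, where 4.00% and 3.39% of all genes were called. With empagliflozin 11 were higher (10.8%) and 2 lower (1.96%), against 3.46% and 2.99%. Against vehicle, 3 were higher with TYA-018 and 1 with empagliflozin, with 0 lower, where 1.93% and 0.850% of all genes were called in either direction. Between the drugs 0 were called. Without V2523, 5 were higher with TYA-018 than with vehicle and 1, Ucp3, with empagliflozin, where 1.42% and 0.0145% of all genes were called. List counts without V2523, those of the cell type markers included, were added after the data had been seen.

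Of 15 tested sources of superoxide and peroxide, Nox4, an NADPH oxidase that makes hydrogen peroxide, rose in the vehicle group against non_failing hearts (log2 fold change 1.30, SE 0.35, adjusted p = 0.0310). Its level was low, with a mean of 0.857 TPM (SD 0.732, n = 8) against 0.327 TPM (SD 0.0867, n = 8), and without vehicle V2530 the change was 0.80 and not called (adjusted p = 0.193). It was also lost without non_failing V2501, V2502, V2508 or V2510, with adjusted p of 0.0574 to 0.0624. Nos2, the inducible nitric oxide synthase, was lower with TYA-018 than in non_failing hearts (-0.68, SE 0.16, adjusted p = 0.00612), with means of 1.86 against 2.99 TPM.

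Of 17 other glutathione enzymes tested, Oplah, the 5-oxoprolinase that returns glutamate to glutathione synthesis, was higher in all 3 HFpEF groups than in non_failing hearts. The change was 0.38 with vehicle (SE 0.07, adjusted p = 0.00104), 0.49 with TYA-018 (SE 0.07, adjusted p = 2.89e-06) and 0.57 with empagliflozin (SE 0.07, adjusted p = 1.69e-07). Slc25a39, a mitochondrial glutathione importer, was higher with TYA-018 (0.47, SE 0.10, adjusted p = 0.00141) and with empagliflozin (0.38, SE 0.10, adjusted p = 0.0104). Glrx5, a mitochondrial glutaredoxin of iron-sulfur cluster assembly, was 0.24 higher with TYA-018 (SE 0.08, adjusted p = 0.0440), and this call held in 26 of the 38 fits without 1 library, with an adjusted p of 0.107 without V2507. Of 19 other transferases tested, Gstk1, of mitochondria and peroxisomes, was lower with vehicle (-0.42, SE 0.10, adjusted p = 0.0133) and higher with TYA-018 than with vehicle (0.35, SE 0.09, adjusted p = 0.0448). Both Gstk1 comparisons used the same vehicle libraries, and the TYA-018 call held in 23 of the 38 fits without 1 library, with an adjusted p of 0.0982 without V2530. Gstm6, at a mean of 1.06 TPM in non_failing hearts, was lower with vehicle (-0.99, SE 0.25, adjusted p = 0.0176), TYA-018 (-1.04, SE 0.23, adjusted p = 0.00278) and empagliflozin (-0.98, SE 0.23, adjusted p = 0.00507). Gstm5 was lower with vehicle (-0.29, SE 0.07, adjusted p = 0.0224), a call lost in 2 of the 38 fits (adjusted p = 0.0535 without V2502). Gsta1 was higher with vehicle (0.82, SE 0.21, adjusted p = 0.0231) and with TYA-018 (0.68, SE 0.20, adjusted p = 0.0280), and the TYA-018 call held in 31 fits (adjusted p = 0.0603 without V2503). Reads of these multigene families may be split between near copies.

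Of 25 other NRF2 targets and partners tested, 1 was called with vehicle, 3 with TYA-018 and 5 with empagliflozin, all higher than in non_failing hearts. These are 4.00%, 12.0% and 20.0% of the list, against 1.77%, 4.00% and 3.46% of all genes called higher. Osgin1, a stress-induced growth inhibitor, was higher with vehicle (0.79, SE 0.21, adjusted p = 0.0281), and without V2523 it was 0.56 and not called (adjusted p = 0.0838). It was also lost without V2501, V2502, V2503 or V2528, with adjusted p of 0.0557 to 0.0624. Aox1, an aldehyde oxidase, was higher with TYA-018 (0.73, SE 0.20, adjusted p = 0.0175) and with empagliflozin (1.03, SE 0.20, adjusted p = 0.000902), and without V2523 it was called higher with vehicle as well. Fth1, the ferritin heavy chain that stores iron, was higher with TYA-018 (0.32, SE 0.07, adjusted p = 0.00359). Pgd, an NADPH-producing enzyme of the pentose phosphate pathway, was 0.22 higher with TYA-018 (SE 0.07, adjusted p = 0.0321), a call that held in 30 of the 38 fits (adjusted p = 0.0910 without V2503), and 0.23 higher with empagliflozin (SE 0.07, adjusted p = 0.0264). Mafg, a small MAF partner of NRF2, was higher with empagliflozin (0.50, SE 0.12, adjusted p = 0.0106), as was Me1, malic enzyme, another source of NADPH (0.61, SE 0.17, adjusted p = 0.0230), whose call held in 35 fits (adjusted p = 0.0590 without V2507).

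In a list of thiol, selenium, repair and related mitochondrial genes, 26 were tested. Ucp3, a mitochondrial carrier induced by fatty acids, was higher than with vehicle under TYA-018 (0.79, SE 0.21, adjusted p = 0.0370) and under empagliflozin (1.17, SE 0.21, adjusted p = 0.00129). The empagliflozin call for Ucp3 was kept in all 38 fits without 1 library and the TYA-018 call in 28 (adjusted p = 0.0735 without V2527). Against non_failing hearts, Ucp3 was 0.83 higher with TYA-018 (SE 0.21, adjusted p = 0.00998) and 1.21 higher with empagliflozin (SE 0.21, adjusted p = 0.00022), and its mean rose from 11.4 TPM in non_failing hearts to 19.6 and 26.3 TPM. Msrb1, which repairs oxidised methionine, was higher with TYA-018 than with vehicle (0.48, SE 0.13, adjusted p = 0.0374), a call that held in 29 fits (adjusted p = 0.0938 without V2530), and higher than in non_failing hearts (0.44, SE 0.13, adjusted p = 0.0258). Idh1, which makes cytosolic NADPH, was 0.38 higher with TYA-018 than in non_failing hearts (SE 0.09, adjusted p = 0.00552), and the metallothionein Mt1 was 0.63 higher (SE 0.17, adjusted p = 0.0137). Mt1 was 0.53 higher with empagliflozin (SE 0.17, adjusted p = 0.0447). Ucp2, a mitochondrial carrier related to Ucp3, was 0.89 higher with empagliflozin (SE 0.19, adjusted p = 0.00250) and 0.68 higher with TYA-018 (SE 0.19, adjusted p = 0.0212) than in non_failing hearts, and without V2523 it was called higher with vehicle too. The selenoprotein Selenow was lower with empagliflozin (-0.28, SE 0.07, adjusted p = 0.00768).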

How the data were processed

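Left ventricle RNA of 38 mice was sequenced after capture of polyadenylated RNA. The authors trimmed reads with fastp and quantified transcripts with salmon 1.6.0 with corrections for sequence and GC bias, and gene values were made with tximport. The deposited expected counts are estimated reads per gene and are not whole where a read fitted several sequences. The deposited TPM values are transcripts per 1000000 transcripts as scaled by the authors. Another deposited table holds effective lengths in bases and entered as an offset in an alternative. Unmapped columns numbered 0. The depositors' processing notes name a human build, against mouse symbols and a mouse annotation in the study's methods.

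Expected counts were rounded, filtered with filterByExpr and scaled with TMM, and tested with the quasi-likelihood F test (two-sided) of edgeR 4.0.16 in R 4.3.3 over 4 groups and 6 comparisons. P-values were adjusted by the Benjamini-Hochberg method over 13765 genes, and a call needed an adjusted p under 0.05. Intervals are 95%. Alternatives used DESeq2 1.42.0, limma 3.58.1 on log2(TPM + 1), the scale of the study, and log2(TPM + 0.1), both after TPM of genes with counts in 90% of libraries, mitochondrial genes left out, had been rescaled to 1000000 (the study also kept protein-coding genes alone), sva 3.50.0, other scalings, filters and left-out libraries. The test was tried on simulated counts. Members and lists were chosen with earlier results of these data known. Members called in a comparison are given with TPM by group, and up to 3 called genes per wider list and comparison are named, by smallest p, except for a result that is not reported here, with values in the other comparisons that called them added after these had been seen. Gene positions are GENCODE M21 on GRCm38, and promoters RefSeq on GRCm38.p6. Whether strand was used in counting is not given in the sources used here, so genes with an antisense neighbour are uncertain. Labels do not say whether mice shared cages or litters, so p-values measure the spread between these mice.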

Additional observations from a re-analysis of the deposited data

Results flagged for a closer look

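Each member was tested for a single library far from the other 7 in the groups of 8, by the gap to the nearest library as a share of the range (Dixon's 95% critical value), and 9 of 66 tests passed. Chance passes about 1 in 20 groups, and the members are not independent of each other. In HFpEF+Veh, 4 of the 9 were high values in V2523. Mgst1 was 176 TPM against 37.3 to 56.0 TPM in the others, Gclc 12.8 TPM against 4.87 to 5.86 TPM, Gsr 7.94 TPM against 4.47 to 5.81 TPM and Gss 8.08 TPM against 4.56 to 6.05 TPM. The other vehicle libraries that stood out were V2521, with Sod3 at 16.9 TPM against 8.20 to 12.0 TPM, and V2532, with Prdx2 at 193 TPM against 245 to 277 TPM. In non_failing hearts, Keap1 was 8.19 TPM in V2507 against 12.5 to 14.2 TPM, Gpx4 was 770.2 TPM in V2502 against 625 to 688 TPM, and Mgst1 was 59.1 TPM in V2504 against 37.4 to 42.8 TPM.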

How the results depend on the processing

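No paired analysis was possible because the mouse numbers in the titles differ between groups. Members called between HFpEF+Veh and non_failing (0) became 3 with library size alone (Sod1, Sod3, Srxn1), 2 with limma on log2(TPM + 1) and on log2(TPM + 0.1) (Sod1, Srxn1), and 1 with DESeq2 (Sod3) and without V2555 and V2570, an alternative added after the data had been seen. Between TYA-018 and vehicle (0) there was 1 with library size alone (Gclc, lower) and 2 with 1 surrogate variable (Txn2, Gsta4). Between empagliflozin and vehicle (0) there was 1 with 1 surrogate variable (Txnrd1), and between the drugs (0) there was 1 with DESeq2 (Gstt1). Against non_failing hearts, TYA-018 had 3 calls with library size alone, 7 with DESeq2 (adding Gsta4) and 8 with 1 surrogate variable (adding Prdx6 and Gsta4), against 6, and empagliflozin 5 with DESeq2 and 5 with 1 surrogate variable, against 3. The cause of these changes was not tested. Over the fits without 1 library, calls ranged from 0 to 1 for vehicle against non_failing, 0 to 1 for TYA-018 against vehicle, 0 to 1 for empagliflozin against vehicle, 4 to 7 for TYA-018 against non_failing and 3 to 4 for empagliflozin against non_failing. The member median between TYA-018 and vehicle (0.10) was -0.0259 with library size alone, -0.0197 with limma on log2(TPM + 1) and -0.0196 on log2(TPM + 0.1). Between TYA-018 and vehicle, 13 of 33 members changed sign with library size alone and 13 with limma at either pseudocount. Of the members under an unadjusted p of 0.05, those that changed sign were Prdx2 between TYA-018 and vehicle, -0.0228 with limma at either pseudocount, and Mgst1 between vehicle and non_failing, -0.00029 without V2523 (range over the fits without 1 library -0.00029 to 0.51). Over all genes, the share of calls that were higher was 56.1% between vehicle and non_failing, 79.45% with library size alone and 45.3% without V2523, 43.2%, 2.28% and 62.2% between TYA-018 and vehicle, and 54.2%, 28.5% and 52.7% between TYA-018 and non_failing. Between empagliflozin and vehicle, the share of all genes called went from 0.850% to 0.0145% without V2523. Members with an SE near 0.2, such as Mgst1, could not show a difference of that size at these group sizes.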
